A study of Mus musculus with 3 samples.

Results

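The 10 genes examined here are used to recognise mesenchymal cells, and they were read in CLDE, a mouse epithelial line taken from the cervical loop, the growing end of the incisor. They are the cytoskeletal and adhesion genes Vim and Cdh2, the transcription factors Snai1, Snai2, Twist1, Zeb1 and Zeb2, and the stromal genes Dcn, Lum and Pdgfra. All 10 are on the array, with 22 of the 56598 probes that had values on every array, chosen by the gene name printed for the probe. The probes named through RefSeq cover 24812 genes. There were 3 arrays of total RNA, all from cells taken 72 h after transfection: 1 of a mock transfection, 1 of a non-targeting siRNA (siNeg) and 1 of an siRNA against keratin 15 (siKrt15). CLDE is 1 cell line, and each array holds the RNA of a whole culture, so that fewer cells of a type and less RNA per cell cannot be told apart.

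Epithelial cells hold together through E-cadherin junctions and a keratin network. In an epithelial-mesenchymal transition, SNAI, TWIST and ZEB proteins repress E-cadherin and other epithelial genes, and cells gain N-cadherin, vimentin and matrix proteins. Decorin and lumican are small leucine-rich proteoglycans that bind collagen fibrils, and PDGFRA is a receptor tyrosine kinase of fibroblasts and of the mesenchyme that faces the dental epithelium. Snai2 is also expressed by basal cells of several stratified epithelia.

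The labels of 2 arrays contradict each other, because the title and source name say siNeg or siKrt15 where the description and treatment field say the other. Arrays are called here by their titles. The targeted gene Krt15 had a processed signal of 2638 on the mock array, 1647 on the array titled siNeg and 267.2 on the array titled siKrt15. It was lowest on the array titled siKrt15, at a log2 difference of -2.88 from siNeg and -3.48 from mock, while siNeg differed from mock by -0.60. Under the other reading of the labels, every difference between siKrt15 and siNeg below would change its sign. The processed signal is the scanner's background-subtracted brightness in arbitrary units. The 3 arrays lay on 1 slide, were scanned on 1 day and had 65.8% to 67.8% of their probes well above background. The lowest signal flagged so was 4.49 to 4.56, which is where the measurable range of each array begins.

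The 5′ to 3′ sequences of 5 of the probes behind the differences described below are shown, with positions on mm9 as the files give them. The Cdh2 and Vim probes, which also differ between arrays, are not among them. The Dcn probe (chr10:96980233-96980292, plus strand) and a Zeb2 probe of NM_015753 (chr2:44844068-44844127, minus strand) are shown whole, with the stop codon that ends an open reading frame in capitals. In the Dcn probe 54 bases of open frame precede the stop and 3 follow it. In the Zeb2 probe 25 bases follow it. The first 30 of 60 bases are shown for a second Zeb2 probe, made for BC050145 (chr2:44951878-44951937, minus strand), for Snai1 (chr2:167368073-167368132, plus strand) and for the NM_011058 probe of Pdgfra (chr5:75593888-75593947, plus strand). The files do not say which exon or untranslated region a probe lies in.
Dcn: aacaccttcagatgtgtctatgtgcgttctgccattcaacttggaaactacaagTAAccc
Zeb2 NM_015753: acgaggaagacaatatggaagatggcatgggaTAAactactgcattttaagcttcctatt
Zeb2 BC050145: aaggccccaaaacaaggcgaaaatcttaaa
Snai1: gtttcacagcagtttaactgtctcagaagg
Pdgfra NM_011058: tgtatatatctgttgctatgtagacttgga

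Mesenchymal transcripts were detected in the line, but not all of them. Cdh2, Snai2, Twist1, Zeb2, Dcn and Pdgfra, 6 of the 10 genes, had a probe well above background on all 3 arrays, against 68.3% of all genes. Zeb1 and Lum had none on any array, against 23.9% of all genes. Vim passed on the mock array only, as did 1.23% of genes, and Snai1 on the siKrt15 array only, as did 1.02%. By probe, 13 of 22 were well above background on mock (59.1%), 11 on siNeg (50%) and 13 on siKrt15 (59.1%). Of all probes 67.6%, 67.8% and 65.8% were, so the members were not detected more often than probes at large.

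**Figure D1:**
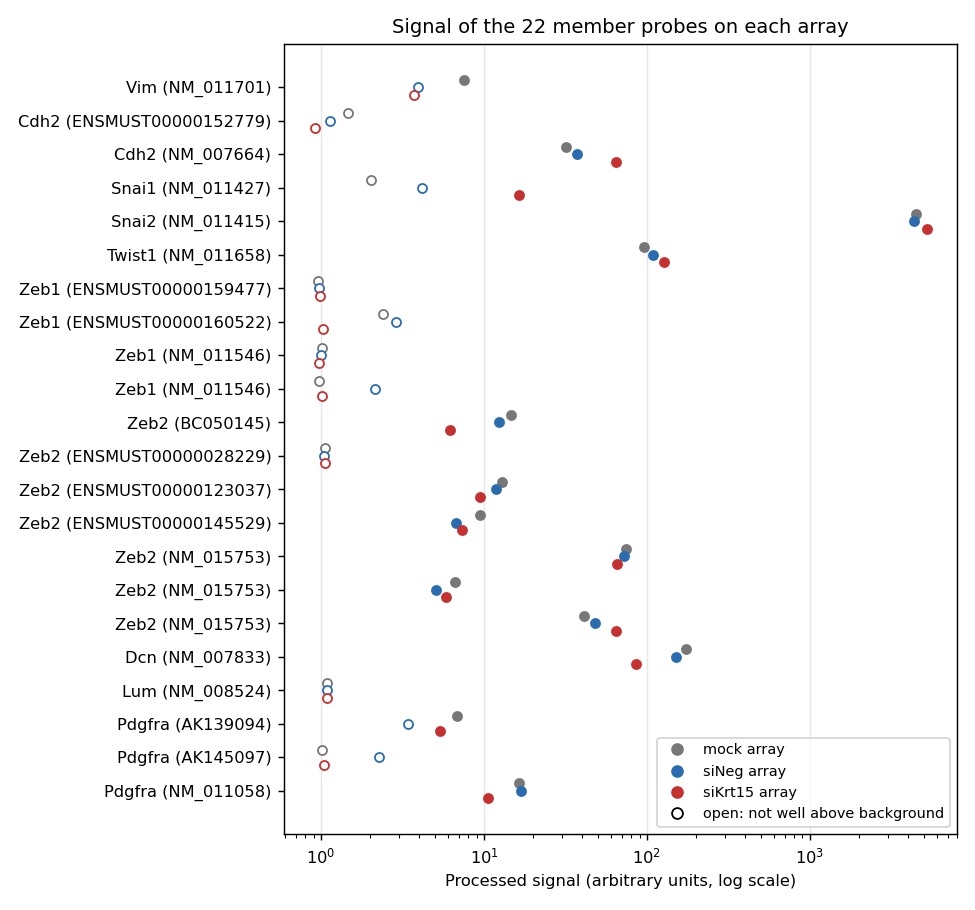
Processed signal (arbitrary units, log axis) of each of the 22 probes on the mock, siNeg and siKrt15 arrays, with open circles where a probe was not well above background. Snai2 reads at least 4342 on every array, and the Zeb1 and Lum probes read at most 2.89.

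Between arrays, differences are given as log2 processed signal after subtracting each array's 75th percentile, with an SD from the error model of the scanner software, which is no spread between replicates. With 1 array per group there was no replicate check and no test, and the precision is limited by the number of arrays. A gene counts as higher or lower at 2-fold or more, and only probes well above background on both arrays are used.

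Vimentin, the intermediate filament protein of mesenchymal cells, was near the detection limit. Its single probe (NM_011701, chr2:13504232-13504291) read 7.56 on mock, 3.94 on siNeg and 3.74 on siKrt15, with error-model SDs of 1.0 to 1.2. Only the mock value was well above background, which makes mock at least 1.59-fold higher than siNeg and at least 1.90-fold higher than siKrt15. Such a bound divides the bright value by the dim array's detection limit, or by the dim value where that is larger. It leaves out the error of the bright value, so it is no guaranteed minimum. The bounds on Vim ran from 1.59 to 1.74 over siNeg and from 1.49 to 1.94 over siKrt15 under the scalings tried. With normexp background correction they were 1.0 and 1.17. That correction adds an offset of 50 to every signal, which pulls the ratios of dim probes towards 1, so it cannot check these bounds. Other intermediate filaments outside the keratin family were measurable in 8 of 8 genes of a companion list, among them the nuclear lamin Lmna, whose brightest probe read 12454 on mock, 13623 on siNeg and 16809 on siKrt15. None of these 8 was 2-fold higher or lower in siKrt15 against siNeg, where 1.70% and 2.0% of all genes were, and their median log2 difference was -0.07.

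N-cadherin, the adhesion molecule of mesenchymal and neural cells, was low but measurable. Its NM_007664 probe read 31.8 ± 3.32 on mock, 37.1 ± 3.83 on siNeg and 64.4 ± 6.51 on siKrt15, so that siKrt15 was the highest of the 3 and siNeg lay above mock. The log2 difference was 0.54 ± 0.21 against siNeg and 0.84 ± 0.21 against mock, short of 2-fold in both, and 0.30 ± 0.21 between siNeg and mock. Of all genes, 5.60% were at least as high in siKrt15 against siNeg, 3.08% in siKrt15 against mock and 9.11% in siNeg against mock. A second Cdh2 probe, made for a different transcript, read 0.91 to 1.46 and was not well above background on any array. With normexp background correction, whose offset of 50 shrinks the differences of so dim a gene, its values were 0.15 against siNeg and 0.33 against mock. With dim probes kept, which averages in the second probe, they were -0.02 and -0.01.

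Of the transcription factors, Snai2 was bright on every array and Snai1 was detected on siKrt15 alone. Snai2, a zinc-finger repressor, read 4493 ± 449.3 on mock, 4342 ± 434.2 on siNeg and 5220 ± 522.0 on siKrt15. After scaling these signals were nearly level, with log2 differences of 0.01 against siNeg, 0.04 against mock and 0.03 between the controls, each with an SD of 0.20. Snai1, its paralogue and a direct repressor of E-cadherin, read 2.04 ± 0.94 on mock, 4.17 ± 0.99 on siNeg and 16.5 ± 1.88 on siKrt15. Both controls were at background and siKrt15 was not, giving bounds of at least 3.07-fold higher than siNeg and at least 3.20-fold higher than mock. The bounds ran from 3.06 to 3.89 and from 3.14 to 3.76 over the scalings tried. With normexp background correction they were 1.06 and 1.16, but its offset of 50 exceeds all 3 readings and pulls such ratios towards 1.

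Twist1, a basic helix-loop-helix factor of mesoderm and neural crest, read 96.2 ± 9.67 on mock, 108.6 ± 10.9 on siNeg and 128.1 ± 12.9 on siKrt15. Its scaled values differed by -0.02 ± 0.20 between siKrt15 and siNeg, by 0.24 ± 0.20 between siKrt15 and mock and by 0.26 ± 0.21 between the controls, so siKrt15 stood no further from mock than siNeg did. Zeb1, a zinc-finger repressor of E-cadherin, had 4 probes for 3 transcripts. They read 0.96 to 2.89 over the 3 arrays, and none was well above background on any of them.

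Zeb2, its relative, is covered by 7 probes that span 125.9 kb, and 6 of them were well above background on all 3 arrays. Their mean log2 difference was -0.38 ± 0.13 against siNeg and -0.47 ± 0.12 against mock, with -0.09 ± 0.12 between the controls. The probes did not move together. The BC050145 probe, 14.0 kb downstream of the most upstream one, read 14.6 on mock, 12.3 on siNeg and 6.22 on siKrt15, a difference of -1.25 ± 0.31 from siNeg and -1.41 ± 0.30 from mock. The NM_015753 probe that holds the stop codon, at 121.8 kb, read 74.2, 72.7 and 65.5 in the same order and differed by -0.41 ± 0.21 from siNeg. Its neighbour at 123.1 kb went the other way, at 41.2, 47.8 and 64.5, and differed by 0.17 ± 0.21 from siNeg and 0.47 ± 0.21 from mock. The remaining 3 measured probes read 5.07 to 12.9 and differed from siNeg by -0.57, -0.15 and -0.06. When only probes at or above the 25th percentile of those above background were kept, the Zeb2 value against mock became 0.06 and that against siNeg -0.12. Against siNeg it was also -0.19 with normexp, -0.16 with median scaling, -0.15 with spike-in scaling, -0.14 with the signal trend removed and -0.12 with quantile normalization.

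**Figure D2:**
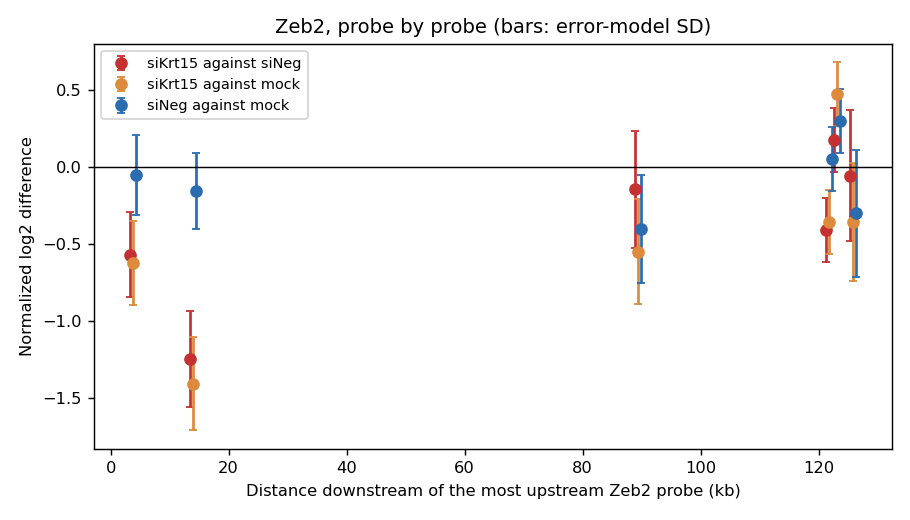
Normalized log2 difference of the 6 measured Zeb2 probes (vertical axis, bars are the error-model SD) against distance downstream of the most upstream Zeb2 probe in kb, for each pair of arrays. Values of siKrt15 against siNeg run from -1.25 at 14.0 kb to 0.17 at 123.1 kb.

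The stromal genes were lower in siKrt15 wherever they could be measured. Decorin read 174.5 ± 17.5 on mock, 150.5 ± 15.1 on siNeg and 85.8 ± 8.64 on siKrt15, so the controls lay together and siKrt15 below them. Its log2 difference was -1.07 ± 0.20 against siNeg, which is 2.10-fold lower, and -1.20 ± 0.20 against mock, which is 2.30-fold lower, with -0.13 ± 0.20 between the controls. Of all genes, 1.55% were at least as low against siNeg and 0.578% against mock. The value stayed below 0 in all 11 settings tried and reached 2-fold in 8 of them against siNeg and in 9 against mock. With 1 probe, however, the 2 filters and the brightest-probe setting could not change it. The authors' table holds nearly the same signal less a constant. Against siNeg it fell short of 2-fold with normexp (-0.73), median scaling (-0.85) and spike-in scaling (-0.84).

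Pdgfra was dim on all 3 arrays. The NM_011058 probe read 16.5 ± 1.91 on mock, 16.9 ± 1.94 on siNeg and 10.5 ± 1.44 on siKrt15, with the controls equal within their error and siKrt15 lower. It differed by -0.94 ± 0.26 from siNeg and by -0.82 ± 0.26 from mock. A second probe, for AK139094, was above background on mock at 6.78 and on siKrt15 at 5.34 but not on siNeg at 3.43, and with it the gene's difference from mock was -0.67 ± 0.24. With normexp background correction, whose offset of 50 exceeds every Pdgfra reading, the gene's values were -0.37 against siNeg and -0.20 against mock. Under the stricter filter on dim probes the gene was not measured. The third probe, for AK145097, read 1.02 to 2.26 and passed nowhere. The Lum probe read 1.09, 1.08 and 1.08 and was not well above background on any array.

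**Figure D3:**
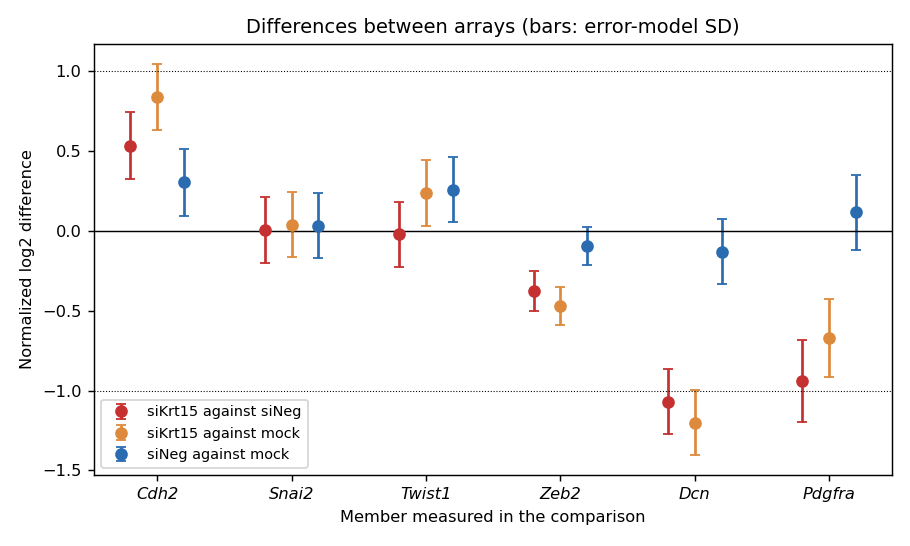
Normalized log2 difference (vertical axis, bars are the error-model SD) of the 6 genes measured in each pair of arrays, with dotted lines at 2-fold. Only Dcn crosses the lower line, in siKrt15 against each control.

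Counted together, 6 of the 10 genes could be measured in each comparison. Against siNeg 0 were 2-fold higher and 1, Dcn, was 2-fold lower, where 1.70% of all genes were higher and 2.0% lower. The counts against mock were also 0 and 1, where 2.18% of all genes were higher and 1.24% lower. Between siNeg and mock they were 0 and 0, against 0.356% and 0.0459%. The median over the 6 genes was -0.20 against siNeg and -0.22 against mock, beside -0.08 and -0.06 over all genes. Against siNeg 2 of the 6 were above 0 and 4 were below. At a threshold of 1.5-fold, 0 were higher and 2 lower against siNeg, where 4.80% and 8.63% of all genes were, and 1 was higher and 2 lower against mock, where 5.83% and 7.69% were. Between the controls 0 passed 1.5-fold in either direction, where 2.42% of all genes were higher and 0.856% lower. The split of all 2-fold calls depends on scaling: 46.0% were higher in siKrt15 against siNeg, but 72.6% after quantile normalization, and 63.7% against mock, but 82.2%.

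**Figure D4:**
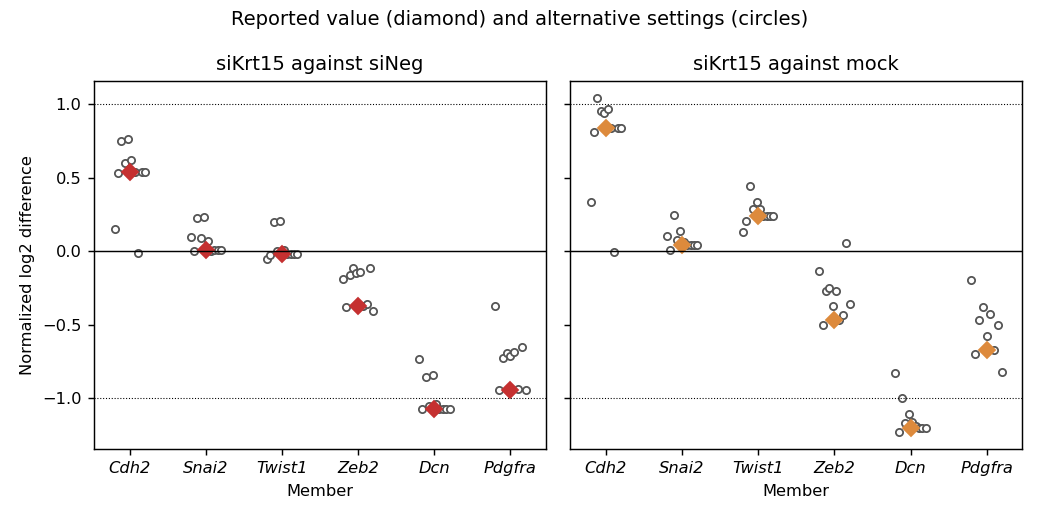
Reported log2 differences (diamonds) and those under the alternative settings (circles) for siKrt15 against siNeg and against mock, with dotted lines at 2-fold. Dcn stays below 0 throughout, from -1.07 to -0.73 against siNeg, while Cdh2 reaches -0.02 when dim probes are kept.

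Most genes of a wider transition pathway list were detected. Of 33 genes on this companion list, 31 were well above background on all 3 arrays, against 68.3% of all genes. A list of neural crest and glial genes also passed in 6 of 7. Whether the pathway was active was not tested. Against siNeg 1 of 31 measured genes was 2-fold higher and 0 were lower, where 1.70% and 2.0% of all genes were. The transition list's median was 0.14. The same counts against mock were 2 and 0, where 2.18% and 1.24% of all genes were, and the list's median was 0.25. Fibronectin (Fn1), a matrix glycoprotein, was the gene past 2-fold in both, at 1.47 ± 0.11 and 1.84 ± 0.11. Tgfb2, a ligand that induces the transition, was 0.86 ± 0.23 above siNeg and 2.13 ± 0.31 above mock, but siNeg itself was 1.27 ± 0.33 above mock. The brightest Tgfb2 probe read 5.77 on mock, near the detection limit, 13.1 on siNeg and 28.6 on siKrt15. Sox4 differed by 0.74 ± 0.14 from siNeg and S100a4 by 0.68 ± 0.20. The smooth muscle actin gene Acta2 went the other way, at -0.50 ± 0.14. Sparc, a secreted matrix protein, read 33134, 39326 and 50660 on mock, siNeg and siKrt15 and differed by 0.19 ± 0.13 after scaling. The close relatives of 2 of the factors, named after their values were seen, were Twist2 at 0.47 ± 0.20 and Snai3 at 0.54 ± 0.31 against siNeg.

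Epithelial genes were measured in full beside these. All 26 genes of that list were well above background on every array, against 68.3% of all genes. Against siNeg 2 were 2-fold higher in siKrt15 and 0 were lower, where 1.70% and 2.0% of all genes were, and the median was 0.13. The 2 were the simple-epithelial keratins Krt8 at 1.43 ± 0.14 and Krt19 at 1.32 ± 0.29, and the epithelial transcription factor Ehf followed at 0.80 ± 0.11. Krt19 was dim, at 11.2 on mock, 8.25 on siNeg and 24.6 on siKrt15. E-cadherin itself (Cdh1), the classical target of the SNAI and ZEB factors and named after its values were seen, read 4666, 4592 and 4663 and differed by -0.24 ± 0.20 from siNeg and -0.18 ± 0.20 from mock. The basal keratins Krt5 and Krt14 differed from siNeg by -0.11 and -0.16.

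Markers of fibroblasts and general mesenchyme went both ways, beside the lower Dcn and Pdgfra. Of 16 genes, 8 were well above background on all 3 arrays, against 68.3% of all genes. Another 6 passed on none, against 23.9%, including Pdgfrb, the partner receptor of Pdgfra, and the fibroblast protease Fap. The summed processed signal of the list, before scaling, was 859.6 on mock, 1083 on siNeg and 2098 on siKrt15. Fbln1, a matrix glycoprotein with 3 probes, makes up much of it, its brightest probe alone reading 299.9, 457.7 and 927.5. Against siNeg 1 of 8 measured genes was 2-fold higher and 1 lower, where 1.70% and 2.0% of all genes were. Of the 8, 3 were above 0 and 5 below, and the median was -0.44. Periostin (Postn), a matrix protein of connective tissue, was the higher one at 1.94 ± 0.17, and Fbln1 and Col1a1 were 0.82 and 0.85. The collagen chain Col6a3 was the lower one at -1.51 ± 0.23, but siNeg was 0.98 ± 0.22 above mock for it and siKrt15 differed from mock by -0.52. The other genes below 0 were Pi16 at -0.86 ± 0.27, the collagen gene Col3a1 at -0.80 ± 0.41, the homeobox gene Prrx1 at -0.58 ± 0.21 and Col1a2 at -0.30. The part of cells of another type in the Dcn and Pdgfra values was not tested.

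Relatives of the stromal genes were also read. Of 8 other small leucine-rich proteoglycans, 2 were well above background on all 3 arrays and 4 on none, against 68.3% and 23.9% of all genes. Biglycan (Bgn) differed by -0.37 ± 0.20 from siNeg, and fibromodulin (Fmod) was 0.97 ± 0.28 above mock in siKrt15 but only -0.01 ± 0.24 from siNeg. In the PDGF family of 6, 4 were measured on every array. Of these, 0 were 2-fold higher or lower in siKrt15 against siNeg, where 1.70% and 2.0% of all genes were. Pdgfa, the main ligand of PDGFRA, differed by -0.29 ± 0.14 and its brightest probe read 7483, 7149 and 7160 on mock, siNeg and siKrt15, while Pdgfc differed by 0.41 ± 0.20.

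**Figure D5:**
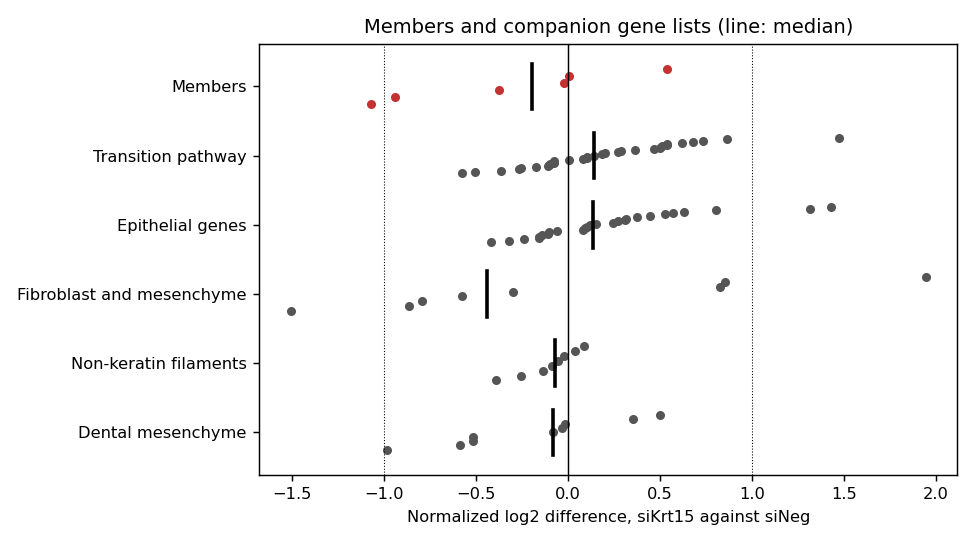
Normalized log2 difference of siKrt15 against siNeg (horizontal axis) for each measured gene of the 10 examined and of the companion lists, with a black bar at each list's median. The epithelial list has a median of 0.13 over 26 genes and the fibroblast list -0.44 over 8.

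The SNAI and ZEB factors bind E-box sequences, and the 250 bases before the start of the genes were searched for CAGGTG on either strand, which reads CACCTG on the other. RefSeq windows on GRCm38.p6 were searched for 5 of the 10 genes, Pdgfra, Snai1, Twist1, Vim and Zeb2, with 8 windows in all. The other genes, among them Cdh2 and Zeb1, were not searched. The motif was in 1 of them, that of Snai1, where it begins 126 bases before the start, and in 17.2% of 32851 such windows of all genes. The window of the gene (chr2:167537945-167538194, plus strand) is shown because Snai1 is the factor seen on 1 array only, with the match in capitals. A match describes these letters and is no evidence of binding.
Snai1 window: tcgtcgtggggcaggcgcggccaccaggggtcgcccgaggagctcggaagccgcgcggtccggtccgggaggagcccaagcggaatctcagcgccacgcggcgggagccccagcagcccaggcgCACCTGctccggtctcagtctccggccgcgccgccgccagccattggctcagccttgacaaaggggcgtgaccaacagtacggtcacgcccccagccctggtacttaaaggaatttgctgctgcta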

How the data were processed

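Per the labels' protocols, the arrays carried cRNA labelled with Cy3, in 1 colour. Spots were quantified in Agilent Feature Extraction (version 11.5.1.1 in the submitters' processing notes) under protocol GE1_1105_Oct12 with mm9 coordinates, per the file headers. The deposited scanner files hold a background-subtracted processed signal, an intensity in arbitrary units. The value table that the authors deposited is on a log2 scale and, after 1 constant per array, lay within 0.01 of the log2 processed signal for 92.4% to 94.0% of probes (medians -3.52, -3.51 and -3.72 for mock, siNeg and siKrt15).

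Each array's 75th percentile of the signal (191.1, 180.4 and 216.0 in that order) was subtracted on the log2 scale, outlier spots (69, 68 and 85) were left out, and a gene was the mean of its measured probes. RefSeq names came from GRCm38.p6, used for names only: 32989 probes by accession, 10224 by symbol, 520 by synonym, and 12865 kept the name in the files. Groups were taken from titles. Python 3.11.15, pandas 2.3.3 and limma 3.58.1 (normexp, offset 50) were used, and the procedure was tested on simulated data. There were 11 companion lists. The members and lists were chosen with earlier results of these data known. Genes were named by rule: every member, Krt15, and of each list up to 4 with the largest siKrt15 to siNeg difference, up to 4 of the highest signal, and other cell types' markers well above background on all 3 arrays. Exceptions are marked where they appear, and genes given as not above background on any array are also outside the rule. Alternatives were background correction, 5 scalings, the authors' table, 2 filters, the brightest probe and a 1.5-fold threshold. Percentile ranks of single probes, planned at first, were left out because levels of different probes are not comparable. The result of 1 list gene is not reported here.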

Additional observations from a re-analysis of the deposited data

How the results depend on the processing

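With 1 array per group, leaving out a replicate was not possible. No paired analysis was possible because each group has 1 array and no replicate number. Of the single-gene values under the alternatives, 142 moved by less than the error-model SD and 35 by more. Part of the 142 could not move. Snai2, Twist1 and Dcn have 1 probe each, which the 2 filters and the brightest-probe setting left unchanged. The authors' table holds nearly the same signal, so its values could hardly move either. The tally is therefore no measure of how stable the values are. Dcn, the only gene past 2-fold among those measured on both arrays of a pair in the reported values, kept its sign. Snai1, whose reported bounds in siKrt15 were also past 2-fold against each control, was not among these values. Smaller values changed sign under at least 1 alternative for Cdh2 against siNeg and mock, Twist1 against siNeg, Zeb2 against mock and between the controls, and Snai2 and Pdgfra between the controls. Against siNeg the count of genes at least 2-fold lower (1) became 0 with normexp background correction, median scaling and spike-in scaling and 2 at 1.5-fold, and the count higher (0) became 1 with no filter on dim probes. Their median (-0.20) became 0.017 with median scaling and 0.029 with spike-in scaling. Against mock the count lower (1) became 0 with normexp and median scaling and 2 with no filter and at 1.5-fold, the count higher (0) became 1 with median scaling, with no filter and at 1.5-fold, and the median (-0.22) became 0.056 with the stricter filter. Between siNeg and mock the count higher (0) became 1 with no filter. Median scaling moved the median of all genes by 0.22 against siNeg and 0.20 against mock, spike-in scaling by 0.23 against siNeg and -0.13 between the controls, and dropping the filter by -0.12 against siNeg. The share of 2-fold calls that were higher against siNeg ran from 18.7% with no filter to 78.8% with spike-in scaling. The cause was not tested. Signals under about 10 lie near the lowest value well above background, which limits Vim, the control values of Snai1, the second Pdgfra probe and several Zeb2 probes. Among the list genes it also limits Tgfb2 on mock, Krt19 on siNeg, Snai3 on both controls and Col3a1 on all 3 arrays, among others.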

Other observations

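Markers of other cell types that the dental tissue holds were read as well. For all the lists below, the shares over all genes were 68.3% well above background on all 3 arrays and 23.9% on none. Against siNeg 1.70% of all genes were 2-fold higher and 2.0% lower. Of 11 dental mesenchyme genes, 8 were well above background on all 3 arrays and 0 of 9 measured were 2-fold higher or lower in siKrt15 against siNeg, with 2 above 0, 7 below and a median of -0.08. The largest differences were those of the homeobox genes Dlx1 at -0.98 ± 0.37 and Lhx6 at -0.59, and the dentin matrix gene Dspp was at -0.52. Dlx1 lay near the detection limit, its brightest probe reading 4.14 on mock, 8.03 on siNeg and 4.87 on siKrt15. It was not well above background on mock. The homeobox gene Msx1 (189.1, 196.6 and 300.9 on mock, siNeg and siKrt15) differed by 0.35, Pax9 by -0.52 and Msx2 by -0.08. Runx2, a regulator of bone-forming cells, differed by 0.50. Endothelial genes were mostly at background: 6 of 8 on no array, with Pecam1 and Vwf the exceptions, at 0.11 and -0.62.

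In the pericyte and muscle list 4 of 8 genes were above background on all 3 arrays, and the skeletal actin gene Acta1 was the 1 of 4 measured that was 2-fold lower against siNeg, at -1.09. Of the blood list, 9 of 10 genes were on the array and 6 were above background on all 3, and the median against siNeg was -0.29. The leukocyte gene Ptprc read 1217, 946.9 and 1073 with its brightest probe, while only 2 of its 7 probes were above background. Of 7 neural crest and glial genes, 6 were above background on all 3 arrays and 0 were 2-fold higher or lower, with a median of -0.05.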
